A study of Papio anubis with 25 samples.

Results

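PIP, ZG16B, OPRPN and SCGB2A2 encode small secreted proteins of saliva and other glandular fluids, and their RNA levels are described here in olive baboons (Papio anubis). The 4 genes were found by their symbols among the 21287 genes measured, and all 4 were present. They were picked with their levels in these libraries already known, including the level of ZG16B in the sublingual gland of baboon 5 and the differences of OPRPN and SCGB2A2 between submandibular gland and pancreas. Their levels and differences are therefore a description and carry no test.

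RNA was sequenced from 3 salivary glands (parotid, submandibular and sublingual) and from pancreas and liver of 5 animals, which gave 1 library per tissue and animal and 25 libraries in all. The only male was baboon 5, so sex and animal cannot be told apart; the other 4 were female. No genotype, treatment or age was given for any group. The glands came from the left side, tissue was flash frozen, and RNA came from 3 sections of 30 µm per sample, a small piece of each organ. Levels are in TPM, a transcript abundance that is corrected for transcript length and is relative to the whole library; errors are SD over 5 animals unless another n is given.

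PIP, prolactin-induced protein, is a secreted glycoprotein of saliva, tears and apocrine sweat that is also made in breast epithelium under prolactin and androgen. ZG16B is a secreted protein with a jacalin-like lectin fold, related to the zymogen granule lectin ZG16 of the pancreas. OPRPN is the precursor of opiorphin, a salivary peptide that inhibits the peptidases that break down enkephalins, and SCGB2A2, mammaglobin A, is a secretoglobin, one of a family of small secreted proteins that form disulphide-linked dimers. Saliva is a mixture: serous cells dominate the parotid gland, the sublingual gland is mostly mucous, and the submandibular gland holds both kinds of cell.

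Each of the 4 genes had its own pattern. PIP was highest among the 4 in 4 of 5 submandibular libraries, and ZG16B was highest in 4 of 5 sublingual libraries. OPRPN reached its higher levels in the parotid and submandibular glands, and SCGB2A2 in the submandibular and sublingual glands. The sublingual library of baboon 5 stood above all others: the 4 genes together made up 27.9% of its TPM, against 0.0444% to 3.20% in the other sublingual libraries, 0.0868% to 1.48% in the submandibular gland and 0.0894% to 0.315% in the parotid gland.

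**Figure D1:**
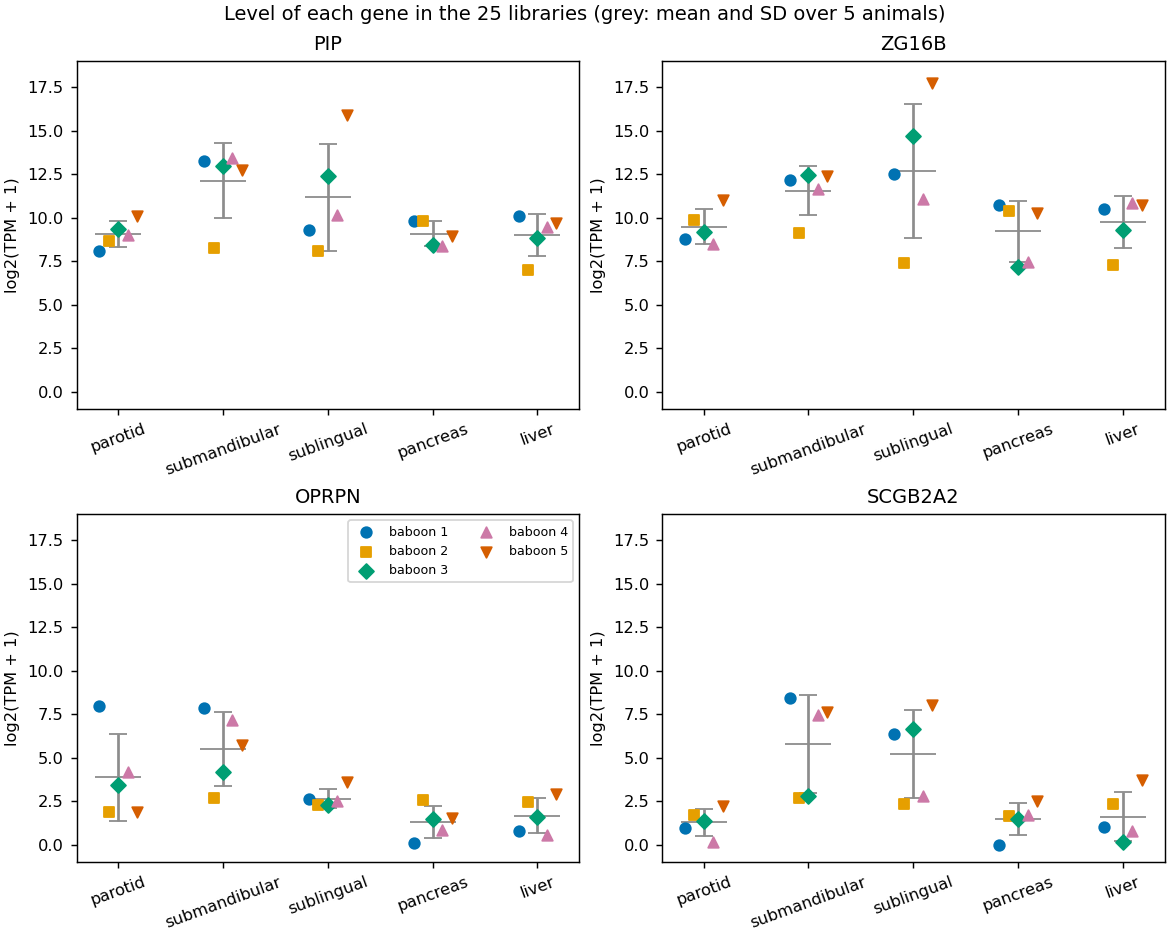
Levels of the 4 genes by tissue, as log2(TPM + 1) on the vertical axis, with 1 point per library, colour and shape for the animal, and the mean and SD of the 5 log2 values in grey. PIP and ZG16B in the sublingual gland of baboon 5 lie at 61330 and 217252 TPM, and the submandibular library of baboon 2 lies below the other 4 submandibular libraries for every gene.

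The libraries did not all hold gland tissue to the same degree. AQP5, the water channel of salivary acinar cells, was no higher than the highest liver value, 3.90 TPM, in 4 of the 15 gland libraries: the parotid libraries of baboons 2 and 5 and the sublingual libraries of baboons 2 and 4. In the submandibular library of baboon 2 it was 5.40 TPM, against 54.7 to 88.3 TPM in the other 4. Summed markers of adipocytes reached 21274 TPM in the parotid library of baboon 2, those of skeletal muscle 91143 TPM in the sublingual library of baboon 2, and those of stratified squamous epithelium 112678 TPM in sublingual baboon 1 and 49027 TPM in sublingual baboon 4. The part of these cells in the results was not tested, and in bulk tissue fewer cells of a type and less RNA per cell cannot be told apart. The 10 highest genes took between 16.2% and 87.7% of all TPM in the gland libraries, which lowers every other gene of the same library.

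PIP in the submandibular gland was 9673, 308, 7894, 11136.5 and 6822 TPM in baboons 1 to 5. In the sublingual gland it was 636, 267, 5296, 1153 and 61330 TPM, and in the parotid gland 271, 397, 651, 519 and 1098 TPM. The submandibular level was high in 4 animals and low in baboon 2, and the ranges of all 3 glands overlapped. Pancreas gave 911, 903, 340.1, 333 and 499 TPM and liver 1092, 126, 457, 704 and 813 TPM, so that the parotid range overlapped both.

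By its mean, PIP ran from the sublingual gland (13736 ± 26683 TPM) through the submandibular gland (7167 ± 4175), liver (639 ± 366) and pancreas (597 ± 290) to the parotid gland (587 ± 319). By its median the submandibular gland came first. The last 3 do not differ beyond their spread, nor do the first 2. In 4 of 5 submandibular and 3 of 5 sublingual libraries PIP exceeded its highest value in pancreas or liver, and in 1 of 5 parotid libraries it did so by less than 10 TPM.

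Within animals, PIP was lower in the parotid than in the submandibular gland by a mean log2 difference in TPM + 1 of -3.09 ± 2.14, with the parotid higher in 1 of 5 animals, baboon 2. Submandibular gland was above liver in 5 of 5 animals, by 3.12 ± 1.13, and above pancreas in 4 of 5, by 3.04 ± 2.65. Between submandibular and sublingual gland the mean difference was 0.96 ± 2.82, smaller than its SD, and baboon 5 was the only animal with more PIP in the sublingual gland. Parotid and pancreas differed by -0.04 ± 1.32, a value whose sign depended on scaling and on the animals kept: it was 0.70 after rescaling without the 10 highest genes, 0.38 without baboon 1 and 0.24 without baboon 2.

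ZG16B in the sublingual gland was 5872, 169.6, 26569.8, 2137 and 217252 TPM in baboons 1 to 5. In the submandibular gland it was 4554, 549, 5558, 3169.8 and 5363 TPM. In the parotid gland it was 435, 933, 583, 357 and 2047 TPM. The sublingual values spread far more widely than those of the other glands, from the lowest gland value in baboon 2 to the highest in baboon 5, where ZG16B was the most abundant gene and alone took 21.7% of the library.

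Pancreas held 1701, 1348, 142, 173 and 1254 TPM of ZG16B and liver 1459.7, 157, 617, 1813 and 1709.6 TPM. ZG16B exceeded its highest pancreas or liver value in 4 of 5 submandibular, 4 of 5 sublingual and 1 of 5 parotid libraries. Ordered by mean, the sublingual gland (50400.1 ± 93865 TPM) was followed by the submandibular gland (3838.5 ± 2065), liver (1151 ± 728), pancreas (923 ± 719) and parotid gland (871 ± 693). Neighbouring means did not differ beyond their spread except for the submandibular gland above liver, where all 5 animals had more ZG16B in the gland, by 1.81 ± 0.85 on the log2 scale.

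The mean within-animal log2 difference of ZG16B between parotid and sublingual gland was -3.22 ± 3.55 and that between submandibular and sublingual gland -1.14 ± 2.76, with 2 of 5 animals higher in the submandibular gland. Without the sublingual library of baboon 5, the sublingual mean was 8687 ± 12154 TPM over 4 animals. The parotid difference from pancreas, 0.26 ± 1.54, turned to -0.26 under TMM scaling (trimmed mean of M values) and to -0.19 without baboon 3.

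ZG16B and PIP can be set against each other within a library, where the share taken by other genes cancels. The ratio of ZG16B to PIP was 9.24, 0.636, 5.02, 1.85 and 3.54 in the sublingual gland of baboons 1 to 5. It was 0.471, 1.78, 0.704, 0.285 and 0.786 in the submandibular gland. Sublingual ZG16B exceeded PIP in 4 animals and submandibular PIP exceeded ZG16B in 4, and in both glands the exception was baboon 2. In the parotid gland the ratio ranged from 0.687 to 2.35, with a median of 1.61. The sublingual library of baboon 5 was thus extreme in both levels but not in their ratio, which equalled the sublingual median.

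**Figure D2:**
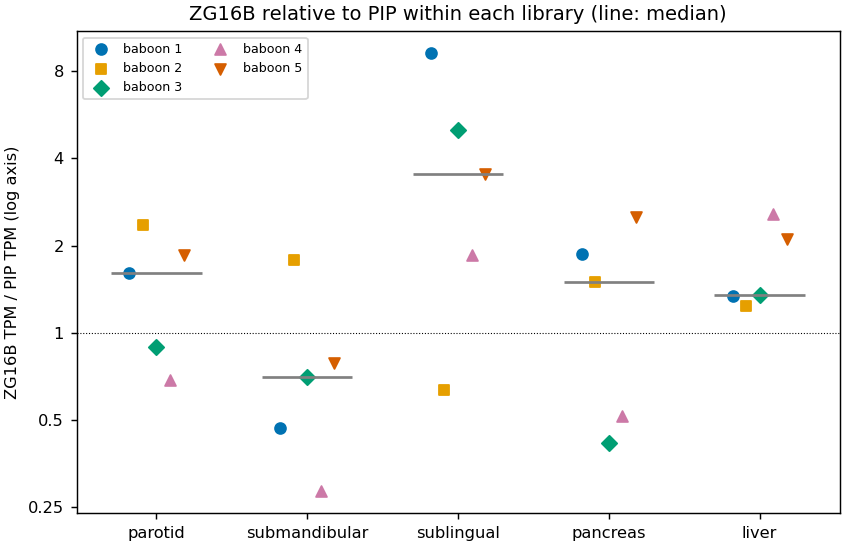
Ratio of ZG16B TPM to PIP TPM in each library, on a logarithmic vertical axis, by tissue, with colour and shape for the animal and a line at the median of 5. The median is 3.54 in the sublingual and 0.704 in the submandibular gland, and baboon 2 lies on the other side of 1 in both.

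OPRPN in the parotid gland was 252, 2.73, 9.88, 17.2 and 2.66 TPM in baboons 1 to 5. In the submandibular gland it was 229.9, 5.37, 17.1, 141 and 52.8 TPM. In the sublingual gland it was 5.08, 3.86, 3.89, 4.59 and 11.1 TPM. Baboon 1 was highest in both the parotid and the submandibular gland, and the sublingual libraries lay in a narrow low range, with baboon 5 above the others. Pancreas had 0.0775 to 4.96 TPM and liver 0.480 to 6.60 TPM, so that 4 of 5 submandibular, 3 of 5 parotid and 1 of 5 sublingual libraries exceeded every pancreas and liver library.

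OPRPN averaged 89.2 ± 94.9 TPM in the submandibular gland, 56.8 ± 109 in the parotid gland, 5.70 ± 3.04 in the sublingual gland, 2.86 ± 2.61 in liver and 1.90 ± 1.87 in pancreas. The 2 leading glands did not differ beyond their spread. All 5 animals had more OPRPN in the submandibular than in the sublingual gland, with a log2 difference of 2.87 ± 2.03, and all 5 had more than in pancreas, by 4.22 ± 3.00, although baboon 2 exceeded its pancreas by only 0.10. The parotid gland was above pancreas in 4 of 5 animals, by 2.57 ± 3.34, with baboon 1 alone at 7.87. The parotid mean rests on baboon 1: the other 4 libraries had 2.66 to 17.2 TPM, with a mean of 8.12 TPM.

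SCGB2A2 in the submandibular gland was 346, 5.43, 6.01, 172 and 195 TPM in baboons 1 to 5. In the sublingual gland it was 79.9, 3.98, 99.1, 5.97 and 257 TPM. In the parotid gland it was 0.970, 2.25, 1.57, 0.0989 and 3.61 TPM. The parotid range overlapped neither of the other glands, and in both of those glands 3 animals were high and 2 low. The highest parotid value, 3.61 TPM, lay close to the lowest sublingual (3.98 TPM) and submandibular (5.43 TPM) values. These values lay below the highest liver value, 12.4 TPM. Across all genes, 0% were called higher and 0% lower between parotid and submandibular gland, and 0.02% higher and 0.0934% lower between parotid and sublingual gland. These are shares of genes called by the test described below. The share of all genes whose ranges did not overlap is not given here. Nothing is read from the called shares for SCGB2A2, which was chosen on its level.

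Pancreas held SCGB2A2 at 2.17, 1.83, 2.20 and 4.65 TPM in baboons 2 to 5 and listed it at 0 in baboon 1. Liver held 1.04, 4.03, 0.123, 0.718 and 12.4 TPM. The submandibular mean was 145 ± 143 TPM, followed by the sublingual gland (89.1 ± 103), liver (3.65 ± 5.09), pancreas (2.17 ± 1.66) and parotid gland (1.70 ± 1.33). The first 2 did not differ beyond their spread, and neither did the last 3. SCGB2A2 was lower in the parotid than in the submandibular gland in 5 of 5 animals, with a log2 difference of -4.52 ± 3.13, and lower than in the sublingual gland in 5 of 5, by -3.95 ± 2.23.

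The level of SCGB2A2 did not simply follow that of PIP. The submandibular library of baboon 3 held 7894 TPM of PIP and 70.8 TPM of AQP5 but 6.01 TPM of SCGB2A2, close to the 5.43 TPM of baboon 2, while the sublingual gland of baboon 3 held 99.1 TPM. The within-animal difference between submandibular and sublingual gland was 0.57 ± 3.13. It turned to -0.44 without baboon 4 and to -0.71 without the 4 libraries low in AQP5. The ratio of SCGB2A2 to OPRPN had a median of 15.7 (range 1.03 to 25.5) in the sublingual, 1.22 (0.351 to 3.69) in the submandibular and 0.159 (0.00386 to 1.36) in the parotid gland. These ranges overlapped, and the medians in pancreas and liver were 1.04 and 1.39.

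Single libraries and scaling both moved the mean levels by over 1.5 times. Without baboon 5 the sublingual means of PIP and SCGB2A2 were 1838 and 47.2 TPM, and the parotid mean of ZG16B was 577 TPM. Without baboon 1 the submandibular means of OPRPN and SCGB2A2 were 54.0 and 94.6 TPM. With the 10 highest genes of each library left out of the total, mean PIP was 34163.5 TPM in place of 7167 TPM in the submandibular gland, and 1937 TPM in place of 587 TPM in the parotid gland. In the submandibular libraries of baboons 1 and 4 PIP ranked 7, so there it was itself among the genes left out of the total. The difference between parotid and submandibular gland was recomputed under 10 alternatives. They were TMM scaling, rescaling, a pseudocount of 0.1, no animal term, each animal left out and the libraries low in AQP5 left out. In all of them parotid PIP, ZG16B, OPRPN and SCGB2A2 stayed below the submandibular level. Mean log2 differences ran from -4.39 to -2.57, from -3.26 to -1.76, from -2.09 to -1.08 and from -5.40 to -3.79 in that order. For OPRPN the main value, -1.64 ± 1.69, was smaller than its SD, with the parotid lower in 4 of 5 animals.

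The sublingual library of baboon 5 was followed across the related genes. PIP there was 11.6 times, ZG16B 8.18 times, SCGB2A2 2.59 times and OPRPN 2.17 times the highest of the other 4 sublingual libraries. Against the 14 other gland libraries, PIP and ZG16B were the highest of all, while 13 lay below it for SCGB2A2 and 8 for OPRPN. The same animal's submandibular library had 6822 TPM of PIP and 5363 TPM of ZG16B, within the range of the other animals, so the excess was 8.99-fold for PIP and 40.5-fold for ZG16B within 1 animal.

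Several other secretory genes, picked out after their values were seen, stood high in the same library. MUC7, a salivary mucin, was 44549.7 TPM against 133 to 2326 TPM in the other 4 sublingual libraries. LYZ, lysozyme, was 17351 TPM against 19.6 to 1341 TPM, and BPIFB1, an airway and salivary protein of the BPI fold family, 16725 TPM against 15.9 to 3203 TPM. SCGB3A2, a secretoglobin of airway epithelium, was 2429 TPM against 0.287 to 52.0 TPM.

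AQP5 (226 TPM) and the epithelial adhesion molecule EPCAM (170.1 TPM) were also at their highest of the 15 gland libraries, as was JCHAIN, the joining chain of secretory IgA, at 8720.0 TPM. PIGR, the receptor that carries secretory IgA across epithelium, was 294 TPM against 1.56 to 74.9 TPM. Not every salivary gene stood out: BPIFA2, a parotid and submandibular secretory protein, was 1442 TPM and within the range of the other sublingual libraries. KRT13, a keratin of stratified squamous epithelium, was 36.4 TPM and below all 4 of them. Which cells gave these values was not tested.

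**Figure D3:**
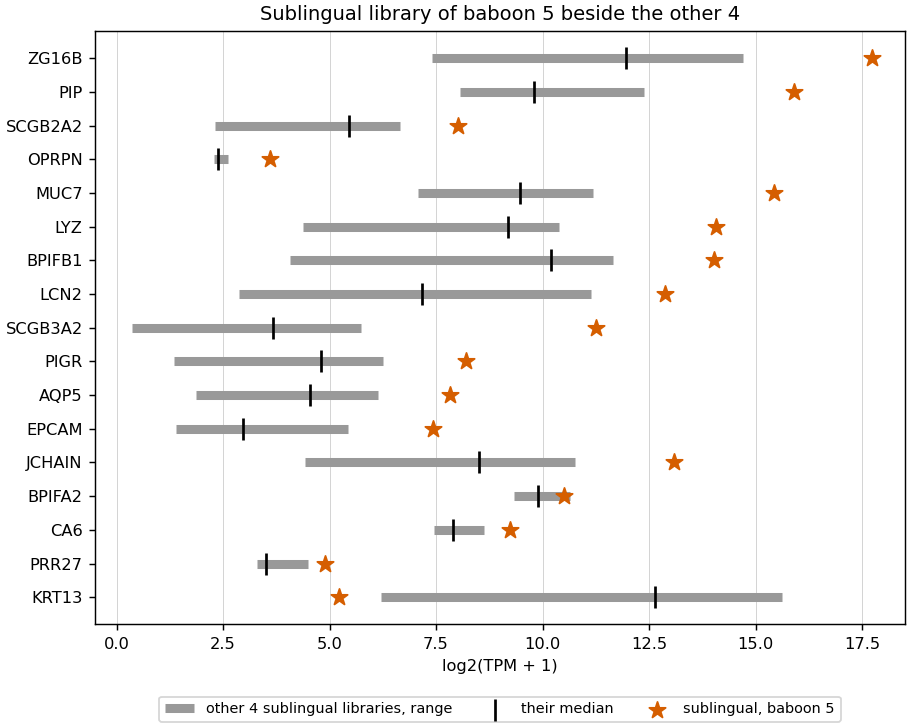
Levels of 17 genes in the sublingual library of baboon 5 (star) beside the range (grey bar) and median (tick) of the other 4 sublingual libraries, as log2(TPM + 1). ZG16B, PIP, MUC7 and LYZ lie 8.18 to 19.2 times above the highest of the other 4, whereas BPIFA2 lies within their range and KRT13 below it.

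Across the 15 gland libraries the 4 genes fell into an unequal group. On log2(TPM + 1), PIP and ZG16B had a Pearson r of 0.86, PIP and SCGB2A2 0.79, and ZG16B and SCGB2A2 0.76. Without the sublingual library of baboon 5 these were 0.78, 0.76 and 0.75 over 14 libraries. OPRPN stood apart, with r of 0.32 with PIP, 0.00616 with ZG16B and 0.32 with SCGB2A2. These libraries share animals, differ in how much gland tissue they hold, and are scaled to the same total, so the coefficients describe these libraries only.

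A ranking by likeness took 5384 genes that averaged 10 TPM or more in some gland and left out genes named only by LOC and a number. Those most like PIP over the 15 libraries were IL19, a cytokine of the interleukin-10 family (r = 0.95), MUC7 (0.90), SPX, the peptide spexin (0.87), ZG16B and RWDD4 (0.84). ZG16B was most like IL19 (0.91), PIGR (0.89), C6H6orf58 (0.89), SPX (0.88) and LCN2, a protein that binds bacterial siderophores (0.88). SCGB2A2 was most like MUC7 (0.90), ST6GALNAC1, an enzyme that adds sialic acid to mucin-type sugars (0.88), MUC19, a gel-forming mucin (0.85), PIGR (0.84) and PIP. OPRPN shared none of these genes. Its nearest ranked genes were BPIFA2 (0.87), CA6, the secreted carbonic anhydrase (0.84), TRPV6, an epithelial calcium channel (0.82), PRR27, a proline-rich protein (0.82), and TESC, a calcium-binding protein (0.78). LOC101011282, outside the ranking, had an r of 0.90 with OPRPN.

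The likeness of SCGB2A2 to MUC7 was as large without the sublingual library of baboon 5 (r = 0.92 over 14 libraries), and submandibular baboon 3 lay off the line, with 1967 TPM of MUC7 beside 6.01 TPM of SCGB2A2. The coefficients of PIP and ZG16B were lower without that sublingual library. PIP then had 0.93 with IL19, 0.85 with MUC7, 0.80 with SPX and 0.77 with RWDD4. ZG16B had 0.84 with IL19, 0.82 with PIGR, 0.82 with C6H6orf58, 0.77 with SPX and 0.79 with LCN2. IL19 was low in absolute terms: it was at most 3.65 TPM in the parotid gland, between 0.114 and 16.4 TPM in the submandibular gland, and 1.51, 0.0750, 27.2, 1.89 and 133 TPM in the sublingual gland of baboons 1 to 5.

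**Figure D4:**
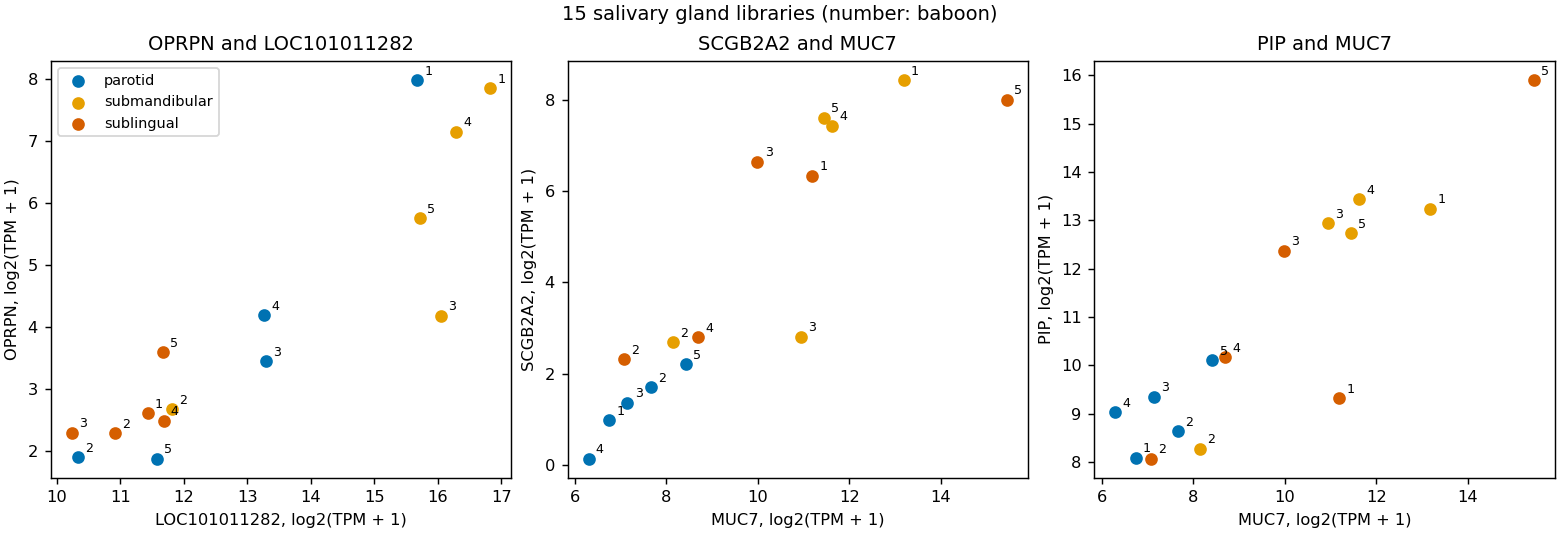
Pairs of genes over the 15 salivary gland libraries, both axes log2(TPM + 1), coloured by gland and numbered by baboon. OPRPN follows its neighbour LOC101011282 (r = 0.90), SCGB2A2 follows MUC7 (0.90) except in the submandibular gland of baboon 3, and PIP follows MUC7 (0.90).

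OPRPN lies in a cluster of genes for salivary and calcium-binding secreted proteins. In the gene order of the RefSeq table of the Panubis1.0 assembly its next neighbours are LOC101011282 on one side and MUC7 on the other. LOC101011282, a protein-coding gene without a symbol, was 115883, 3596, 67923, 80059 and 53957 TPM in the submandibular gland of baboons 1 to 5. In the parotid gland it was 52159.5, 1285, 9999, 9800.3 and 3047 TPM. It never exceeded 3282 TPM in the sublingual gland or 3509.8 TPM in pancreas and liver. Its level moved with OPRPN (r = 0.90 over 15 libraries, 0.91 without the sublingual library of baboon 5) at a far higher level. MUC7, on the other side, did not (r = 0.27). Whether any of these genes share reads as near-identical copies was not tested.

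Related genes that the choice of the 4 did not use were tested with limma on log2(TPM + 1), in the 14991 genes that averaged 1 TPM or more in some tissue, with terms for tissue and animal. Calls needed a p under 0.05 after Benjamini-Hochberg adjustment and a change of at least 1 on the log2 scale. All 4 members passed the filter on low values, with a mean above 1 TPM in every tissue, and they are left out of the counts. The lists were chosen with earlier results of these data known, so their calls are not independent of that choice. The gland comparisons below share the pancreas libraries. For each gene the fit takes the same spread for all tissues. In the sublingual gland the SD of log2(TPM + 1) was 3.96 for BPIFB1, 3.91 for LCN2 and 3.48 for LYZ. In the other tissues it was at most 1.88, 1.27 and 1.30 in that order. The SE and adjusted p of sublingual comparisons can therefore understate the sublingual spread.

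Among saliva and tear proteins, 20 of 26 listed genes were tested. In the sublingual gland 11 rose over pancreas and none fell, against 6.97% of all genes called higher and 2.49% called lower. The list median was 2.22, against 0.63 for all genes. The largest were BPIFB1 (log2 difference 4.24 ± 1.08 SE, limma adjusted p = 0.0174), LCN2 (3.74 ± 0.99, 0.0215) and LYZ (3.69 ± 0.99, 0.0233), each higher in 4 of 5 animals. In the submandibular gland 7 rose and none fell, against 1.27% and 2.81% of all genes, with a list median of 1.51 against 0.17. BPIFA2 led (4.30 ± 0.76, limma adjusted p = 0.000692), followed by PRR27 (4.14 ± 0.87, 0.00434) and MUC7 (3.99 ± 0.86, 0.00544).

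In the parotid gland none of the 20 passed limma at the adjusted threshold, with 8 at an unadjusted p under 0.05, against 1.41% of all genes called higher and 2.4% called lower. Between submandibular and sublingual gland only BPIFA2 was called, higher in the submandibular gland by 4.08 ± 0.76 (limma adjusted p = 0.0415, 5 of 5 animals), against 0.02% of all genes higher and 0.0467% lower. That call held in 6 of 13 alternatives, with limma adjusted p from 0.000183 to 0.629. It was lost under TMM scaling, without the animal term, with no filter on low values and without baboon 1, 3, 4 or 5. The sublingual count depended on the libraries kept. It was 6 without the sublingual library of baboon 5, of which 1 was lower. It was 15 without the 4 libraries low in AQP5 and 4 under TMM scaling. With baboons 1 to 5 left out in turn it was 1, 12, 0, 5 and 2. Of the 2 calls without baboon 5, 1 was lower. The submandibular count was 2, 9, 4, 3 and 5 in the same order, and 4 without the animal term or with no filter on low values. The sublingual count was 6 with no such filter. The parotid count was 7 without the 4 libraries low in AQP5 and 6 without baboon 2.

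Of the other secretoglobins, 3 of 9 listed genes were tested. In the sublingual gland 2 rose over pancreas, against 6.97% of all genes, with a list median of 1.51 against 0.63: SCGB3A2 (3.66 ± 0.97 SE, limma adjusted p = 0.0211) and SCGB3A1, another airway secretoglobin (1.51 ± 0.40, 0.0229). None was called in the parotid or submandibular gland, with none at an unadjusted p under 0.05. Without the sublingual library of baboon 5 or without the animal term the sublingual count was 1, and it was 0 when baboon 3 or baboon 5 was left out. Whether SCGB2A2 differed from these genes was not tested.

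Of the 14 other genes listed around OPRPN, 6 were tested. MUC7 rose over pancreas in the submandibular gland and, with FDCSP, a small secreted peptide gene (3.79 ± 1.12 SE, limma adjusted p = 0.0371), and CSN2, beta-casein (1.74 ± 0.48, 0.0275), in the sublingual gland. CSN2 averaged 5.65 TPM in the sublingual gland and 0.164 TPM in pancreas, but 5.88 TPM in liver. HTN1, a histatin, rose in the parotid gland (3.49 ± 0.97, limma adjusted p = 0.0424). These are 1, 3 and 1 genes in submandibular, sublingual and parotid gland, against 1.27%, 6.97% and 1.41% of all genes called higher. The MUC7 calls are the same ones already counted among the saliva and tear proteins. List medians were 1.27, 1.80 and 0.63, against 0.17, 0.63 and 0.45 for all genes, so that the parotid list lay near the background. The single parotid and submandibular calls were lost when baboon 1, 3 or 4 was left out, and all 3 sublingual calls when baboon 1, 3 or 5 was. TMM scaling also ended the 3 sublingual calls, and the parotid call was lost under TMM scaling, without the animal term and with no filter on low values. Without the sublingual library of baboon 5, 1 sublingual call was made, and without the libraries low in AQP5, 4 sublingual and 2 submandibular calls.

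The zymogen granule list held genes of the pancreas, ZG16 among them. ZG16 was 15678 ± 6558 TPM in pancreas and fell in parotid, submandibular and sublingual gland, with log2 differences of -7.53, -7.40 and -6.79 (limma adjusted p at most 5.02e-09). GP2, CLPS, SYCN and CUZD1, all products of pancreatic acinar cells, fell in each gland too, so that 5 of 6 tested genes were called lower in every gland, against 2.4%, 2.81% and 2.49% of all genes in parotid, submandibular and sublingual gland. DMBT1, a scavenger receptor protein of saliva, rose in the sublingual gland (3.48 ± 0.86, limma adjusted p = 0.0140). That call is also counted among the saliva and tear proteins. ZG16B itself averaged 923 ± 719 TPM in pancreas. Its mean log2 differences from pancreas, 2.34 ± 2.56 in the submandibular and 3.48 ± 4.38 in the sublingual gland, were smaller than their SD, and it was not tested against ZG16.

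Among 15 tested hormone receptors and epithelial transcription factors, those known around PIP and SCGB2A2 in apocrine and mammary epithelium, 6 rose over pancreas and 1 fell in the sublingual gland, against 6.97% and 2.49% of all genes. TFAP2A rose (2.99 ± 0.52 SE, limma adjusted p = 0.000548), as did SPDEF (2.28 ± 0.70, 0.0415), and BHLHA15, a factor of secretory acinar cells, fell by 3.12 (± 0.66, 0.00387). In the submandibular gland 4 rose, against 1.27% of all genes, led by SPDEF (2.99 ± 0.70, limma adjusted p = 0.0108), SOX10 (2.97 ± 0.74, 0.0200) and FOXC1 (2.62 ± 0.66, 0.0200). In the parotid gland 2 rose, against 1.41%, FOXC1 (2.46 ± 0.66, limma adjusted p = 0.0323) and GATA3 (1.54 ± 0.41, 0.0343). List medians were 1.39, 0.64 and 0.91 in sublingual, submandibular and parotid gland, against 0.63, 0.17 and 0.45 for all genes. The submandibular and parotid calls were all lost when baboon 1, 3 or 4 was left out, the parotid calls also without the animal term or with no filter on low values, and the sublingual count was 1, 9, 3, 3 and 5 with baboons 1 to 5 left out in turn. In the parotid and in the submandibular gland 7 calls were made without the 4 libraries low in AQP5. Of the submandibular calls 1 was lower.

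PIP and ZG16B were also listed in every pancreas and liver library. In those 10 libraries PIP was between 0.206% and 1.78% of its level in the sublingual library of baboon 5 (median 0.981%), and ZG16B between 0.0652% and 0.834% (median 0.599%). Other genes, picked after their values in that library were seen, had medians of 0.339% (MUC7), 0.493% (BPIFB1) and 0.498% (LYZ). BPIFA2, at 1442 TPM in that library, had a median of 914 TPM in pancreas and liver. As a share of the submandibular median, the pancreas and liver medians were 7.63% for PIP and 2.55% for BPIFA2. In the other direction, CPA1, a pancreatic carboxypeptidase, in the 15 gland libraries had a median of 0.562% of its pancreas level, and ALB, albumin, a median of 0.538% of its liver level.

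The ratio of ZG16B to BPIFB1 was 13.0 in the sublingual library of baboon 5 and had a median of 13.7 (range 8.70 to 26.4) in pancreas and liver, against a submandibular median of 42.3. In that library ZG16B to MUC7 was 4.88, against a pancreas and liver median of 5.05 (range 1.67 to 10.7). ZG16B to LYZ was 12.5 against 10.5 (5.07 to 18.7), and PIP to AQP5 272 against 182 (63.7 to 293). Other ratios lay above the pancreas and liver range. ZG16B to PIP was 3.54 in that library and had a median of 1.42 (range 0.416 to 2.57) in pancreas and liver. PIP to BPIFA2 was 42.5 against a median of 0.678, and ZG16B to AQP5 962 against 373 (48.9 to 467). Over the 10 pancreas and liver libraries PIP and ZG16B had an r of 0.86. Whether reads passed between libraries was not tested, so values of PIP and ZG16B at these levels, in pancreas, liver and parotid gland alike, may not be expression in that tissue. OPRPN and SCGB2A2 had no such correlation with PIP there (r = -0.25 and -0.22).

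**Figure D5:**
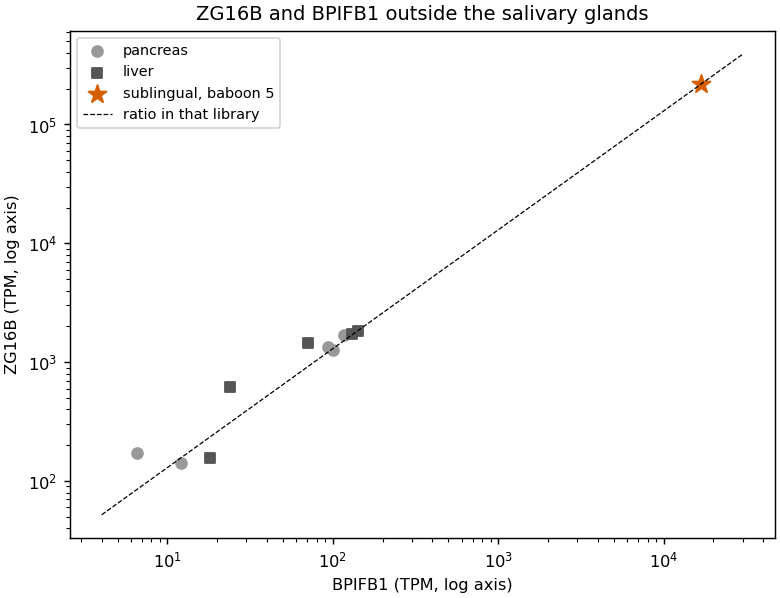
ZG16B against BPIFB1 in the 10 pancreas and liver libraries and in the sublingual library of baboon 5, both axes TPM on a log scale. The dashed line has the ratio of that sublingual library, 13.0, and the 10 other points have ratios from 8.70 to 26.4.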

How the data were processed

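The deposited values were TPM per gene from kallisto, per the table's name, and the authors had summed transcripts to genes. Their notes also name FastQC, MultiQC, cutadapt, HISAT2, SAMtools and featureCounts, with no role or version; the index and genome build are not given in the sources used here. TPM keeps no depth, so reads per library are unknown and no counting error is given.

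Libraries were grouped by tissue and animal from the labels. The 4 members and the 5 related lists were chosen with earlier results of these data known. Tests used limma 3.58.1 in R 4.3.3 (trend) on log2(TPM + 1) on 25 libraries with terms for tissue and animal and Benjamini-Hochberg adjustment within each of 6 comparisons; the script was tested on simulated data. Tables and figures used Python 3.11.15, pandas 2.3.3, numpy 2.4.6 and matplotlib 3.10.9. Log2 differences understate changes of low genes. The animal term follows the labels, where a number is an animal: deviations from tissue means correlated at 0.16 (mean of 50 pairs) within animals and -0.04 (200 pairs) between them.

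Named besides the members are up to 3 called genes per list and comparison with the largest change, the 5 genes with a symbol most like each member, and genes next to it (2 a side) in RefSeq's Panubis1.0 table, used for names and order only; all 21287 identifiers matched it. Alternatives were no animal term, TMM scaling, totals without the 10 highest genes, other filters and pseudocounts, and each animal left out. Leaving out the sublingual library of baboon 5 or the 4 gland libraries low in AQP5 was added after seeing the data. A planned branch for counts was not used.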

Additional observations from a re-analysis of the deposited data

Results flagged for a closer look

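In 5 of 61 sets of 5 animals, 1 library lay far from the others by Dixon's criterion, with a gap to the nearest library above 0.71 of the whole range. Chance gives about 1 in 20 such sets where values are normally distributed, and its rate for TPM values was not measured. All 4 genes were chosen with their levels known, that of ZG16B in baboon 5 among them. The criterion therefore only describes the sets named below, and no chance rate is read from it. ZG16B and PIP in the sublingual gland reached 217252 and 61330 TPM in baboon 5, with gaps of 0.88 and 0.92 of the range. OPRPN in the sublingual gland was also highest in baboon 5, at 11.1 TPM (0.83). OPRPN in the parotid gland was 252 TPM in baboon 1, with a gap of 0.94 of the range. The within-animal log2 difference of PIP between submandibular gland and pancreas was -1.55 in baboon 2, below the other 4 animals (0.75).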

How the results depend on the processing

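All 252 recomputed differences of the 4 genes moved by less than their SD over animals. Of 100 recomputed mean levels 11 moved by more than their SD, all after rescaling or TMM scaling. Leaving out 1 of 5 animals cannot move a mean by as much as its SD. Dropping the animal term leaves the differences unchanged. For those alternatives this measure therefore says nothing about stability. The sign changed under some alternatives for PIP, ZG16B and SCGB2A2 between parotid and pancreas, and for SCGB2A2 between submandibular and sublingual gland. Judged by size, 1 animal also moved means by over 1.5 times: without baboon 5, sublingual PIP went from 13736 to 1838, ZG16B from 50400.1 to 8687 and SCGB2A2 from 89.1 to 47.2 TPM, and without baboon 1, OPRPN from 56.8 to 8.12 TPM in the parotid gland. Counts of genes called were less stable, and the cause was not tested. Between parotid and submandibular gland no gene was called, with 254 at an unadjusted p under 0.05; 1 was called under TMM scaling and 1 without the 10 highest genes, 6 without the sublingual library of baboon 5, 8 without the libraries low in AQP5, and 0 to 11 with an animal left out (11 without baboon 2). Between parotid and sublingual gland 17 were called, and 55, 1671, 59 and 489 under the same alternatives in that order, 3 at a mean of at least 5 TPM and 0 to 404 with an animal left out. Between submandibular and sublingual gland 10 were called, and 0, 253, 66 and 299, 2 with no filter on low values and 0 to 2627 with an animal left out (2627 without baboon 2). Against pancreas, parotid gave 572 genes, 1258 under TMM scaling, 7663 without the 10 highest genes and 315 to 624 with an animal left out. Submandibular gave 611, then 1313, 5762, 1003 without the libraries low in AQP5, and 326 to 682. Sublingual gave 1419, then 3076 without the 10 highest genes, 4132 without the libraries low in AQP5, and 393 to 3011. Without the replicate block (the animal term) the 6 counts were 0, 18, 8, 505, 527 and 1087.

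The share of calls that were higher moved with scaling: from 37.1% to 94.4% for parotid and from 31.1% to 92.6% for submandibular against pancreas without the 10 highest genes, and from 73.6% to 40.0% for sublingual against pancreas under TMM scaling. Between parotid and sublingual gland it was 17.6%, 41.8% under TMM scaling and 95.2% without the 10 highest genes, and between submandibular and sublingual gland 30.0% and 94.5% without them. The median of all genes in the 3 comparisons with pancreas moved from 0.45, 0.17 and 0.63 to 0.03, 0.01 and 0.11 on the log2 scale under TMM scaling. Of 195 recomputed list counts 66 moved by more than 1.5 times. With 5 animals and no read depth, precision rests on the spread between libraries alone, which exceeds the mean for PIP, ZG16B and SCGB2A2 in the sublingual gland but not for OPRPN.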

Other observations

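The genes next to the other 3 members, by the same RefSeq gene order, differed in level from them. The 4 genes around PIP, including the bitter taste receptors TAS2R39 and TAS2R40, were at most 0.328 TPM in every library. Around ZG16B, the serine protease PRSS22 had a sublingual median of 17.1 TPM, against 3.72 in the parotid and 3.36 in the submandibular gland, and PRSS21 stayed at or below 1.79 TPM.

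Beside SCGB2A2, LOC101017903 was 20.5, 0.507, 7.70, 18.1 and 32.0 TPM in the submandibular gland of baboons 1 to 5 and 17.4 TPM in the sublingual gland of baboon 5, with at most 3.11 TPM in the parotid gland. LOC101018271 reached 46.6 TPM in the submandibular gland of baboon 1 and was listed at 0 in the sublingual gland of baboon 5. Beyond LOC101011282 on the same side of OPRPN, LOC103884413 was highest in the sublingual gland of baboon 5 at 117 TPM, where LOC101011282 was 3269.8 TPM.

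Markers of milk-secreting cells were tracked because PIP and SCGB2A2 are known from breast. LALBA, CSN2 and CSN3 summed to at most 26.1 TPM in any library.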
